A study of Mus musculus with 54 samples.

Results

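The spleen was followed through the first 5 h after whole-body irradiation by comparing 5 irradiated spleen libraries, taken at 1, 2, 3, 4 and 5 h, with the unirradiated spleen library at 0 h. These are 6 of the 54 RNA libraries of the series. All 6 came from the spleens of C57B6 mice. The 0 h spleen was not treated, and the other 5 followed 10 Gy of gamma radiation. The labels state neither age nor sex, neither how many animals went into a library nor how the 0 h animals were handled. Genes with a mean of at least 1 FPKM over the 6 libraries were kept, which left 11640 of 13611 listed genes. FPKM counts the sequenced fragments of a gene per length of its transcript and per size of the library, so it is a share of the RNA in a library and not an amount per cell.

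The spleen filters blood and houses large numbers of resting B and T lymphocytes, beside macrophages that recycle red cells and, in mice, sites of red cell formation. Lymphocytes are among the most radiation-sensitive cells of the body. Breaks in DNA activate the kinase ATM, which stabilises the transcription factor p53, and p53 switches on genes that halt the cell cycle, repair DNA or start apoptosis. Breaks also signal through ATM to NF-kB, a transcription factor of inflammation and lymphocyte survival.

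Each hour was represented by 1 library, so the 5 irradiated hours served as the replicates of the irradiated group and any change with time counted as spread. The single 0 h library was assumed to vary like the others. Effects of the 0 h animal, of handling and of time of day cannot be told apart from those of radiation. An exact permutation of 5 libraries against 1 cannot go below p = 0.167, so the tests rest on a spread that limma shares over genes. The libraries resembled each other in scale, with median log2(FPKM + 1) between 3.59 and 3.66, and the deepest held about 1.58 times the fragments of the shallowest. The spleen label fitted the marker genes. At 0 h the B cell receptor genes Cd79a and Cd79b stood at 484 and 871 FPKM and the red pulp macrophage regulator Spic at 127 FPKM. The T cell receptor gene Cd3e stood at 33.0 FPKM and the haemoglobin gene Hbb-b1 at 20341 FPKM. Traces of other tissue appeared in single libraries, with the fat genes Adipoq, Cfd and Retn at 6.02, 11.9 and 6.23 FPKM at 1 h and the pancreatic gene Ctrb1 at 6.26 FPKM at 2 h. The 7 fat genes listed summed to 60.5 FPKM at 1 h and to between 18.0 and 32.9 FPKM in the other 5 libraries.

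The genes that rose in the irradiated spleen were led by targets of p53. By limma on log2(FPKM + 1), 22 of 11640 genes passed a Benjamini-Hochberg adjusted p of 0.05 (0.189%), of which 20 rose (0.172%) and 2 fell (0.0172%). Of the 20 that rose, 10 were among the 54 tested members of 3 lists of p53 targets, and 0 of those 54 fell by the same limma test. At an unadjusted p below 0.05, 1181 of 11640 genes passed limma in either direction. Among them were 29 of the 54 targets upward and 2 downward. The counts at an unadjusted p given for lists below stand against that share of all genes. A second count needs no test. It holds the genes that stood at least 2-fold above 0 h in every irradiated library, 102 genes (0.876%), and those at least 2-fold below in every one, 30 genes (0.258%). The first group held 25 of the 54 p53 targets. The count of 22 was 117 without the 1 h library, 7 without 2 h, 12 without 3 h, 11 without 4 h and 20 without 5 h. A limma fit that took its spread from 40 libraries of 4 tissues called 400 genes up (3.44%) and 261 down (2.24%). Among the p53 targets 14 of 18 for arrest, 9 of 14 for death and 9 of 22 for repair passed upward in it. Genes specific to spleen can lie near 0 in other tissues, where log2(FPKM + 1) hardly varies. The spread of that fit can then be too small for them, so its counts here and below may be too high.

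Cdkn1a, the gene of the cyclin-dependent kinase inhibitor p21, showed the highest log2 change of all genes tested. It lies on chromosome 17 (29090979 to 29100722, GRCm38.p6). It stood at 4.45 FPKM at 0 h and at 136, 220, 256, 276 and 311 FPKM at 1 to 5 h. The lowest irradiated library, that of 1 h, exceeded the unirradiated one 30.6-fold. The mean of 240 ± 66.9 FPKM (SD, n = 5) was 54.0 times the 0 h value, and the log2 change was 5.41 ± 0.40 (SE, limma adjusted p = 0.0058).

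Ccng1, which encodes cyclin G1, and Mdm2, the ubiquitin ligase that returns p53 to a low level, rose as well. Ccng1 stood at 39.6 FPKM at 0 h and at 314, 450, 467, 438 and 353 FPKM from 1 to 5 h. It rose by 3.30 ± 0.26 (limma adjusted p = 0.0058). Mdm2 stood at 22.5 FPKM at 0 h and at 79.3, 104, 108, 120 and 98.8 FPKM. It rose by 2.12 ± 0.24 (limma adjusted p = 0.0237). In both genes the 0 h and irradiated values did not overlap, and the 1 h library was the lowest of the irradiated ones.

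The start sites of these 3 genes are preceded by matches to the p53 half-site, the 10-base sequence of which p53 binds pairs. The 250 bases before each start are shown because these are the rising genes in the promoter table of RefSeq (GRCm38.p6) that hold such a match there. Capitals mark each match, found on either strand, and overlapping matches were allowed.
Cdkn1a, chr17:29090729-29090978, plus strand: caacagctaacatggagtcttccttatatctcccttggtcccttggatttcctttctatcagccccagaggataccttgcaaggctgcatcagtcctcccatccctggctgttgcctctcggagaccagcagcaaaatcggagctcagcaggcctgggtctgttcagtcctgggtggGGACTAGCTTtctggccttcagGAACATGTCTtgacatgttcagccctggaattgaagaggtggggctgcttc
Ccng1, chr11:40755287-40755536, minus strand: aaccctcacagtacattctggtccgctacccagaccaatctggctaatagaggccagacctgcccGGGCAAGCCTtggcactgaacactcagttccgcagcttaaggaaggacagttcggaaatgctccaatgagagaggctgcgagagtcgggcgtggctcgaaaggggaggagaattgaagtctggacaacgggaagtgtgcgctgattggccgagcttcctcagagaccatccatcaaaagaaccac
Mdm2, chr10:117710759-117711008, minus strand: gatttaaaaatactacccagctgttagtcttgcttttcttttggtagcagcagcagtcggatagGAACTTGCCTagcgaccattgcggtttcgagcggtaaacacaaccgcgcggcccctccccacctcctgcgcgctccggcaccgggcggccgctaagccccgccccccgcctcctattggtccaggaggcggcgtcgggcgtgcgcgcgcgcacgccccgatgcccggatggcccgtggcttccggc
The Cdkn1a window held 2 matches, starting 73 and ending 42 bases before the start. The matches of Ccng1 and Mdm2 began 185 and 186 bases before it. Over windows of 250 bases before to 50 after the start, the half-site matched 12 of 30 windows of the 25 p53 targets that were 2-fold higher in every library (40%), with windows found for 22 of these genes. It matched 3 of 16 windows of the 20 genes that rose by limma (18.8%), 15 of 105 of the 102 genes 2-fold higher in every library (14.3%) and 761 of 11418 of all genes tested (6.66%). The 3 of the limma set were those of Cdkn1a, Ccng1 and Mdm2, all from the p53 lists. Of the 15 matching windows of the 102 genes, 12 belonged to the 25 p53 targets, which held 30 of the 105 windows. Windows of 1 gene can overlap, and a match describes letters, not binding.

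Other members of the arrest and feedback list rose as well. Phlda3, which encodes an inhibitor of the kinase Akt, stood at 4.84 FPKM at 0 h and at 44.7, 92.4, 109, 124 and 112 FPKM later (3.98 ± 0.49, limma adjusted p = 0.0367). The stress-responsive polo-like kinase gene Plk2 went from 4.26 FPKM to between 32.0 and 77.6 FPKM (3.52 ± 0.45, limma adjusted p = 0.0405). Sesn2, a stress-induced inhibitor of the growth kinase mTORC1, stood at 4.11 FPKM and then at 30.6, 30.5, 38.5, 46.1 and 36.1 FPKM (2.85 ± 0.25, limma adjusted p = 0.00842). Of 18 members tested, 6 rose, 0 fell by limma, and 11 stood 2-fold above 0 h in every library, with a median log2 change of 2.06 against 0.01 over all genes tested. Sesn1, a paralog of Sesn2, ran the other way, at 59.4 FPKM before and between 33.8 and 39.8 FPKM after irradiation (-0.69 ± 0.18, limma adjusted p = 0.279). Rprm, the remaining member, was not analysed here.

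**Figure D1:**
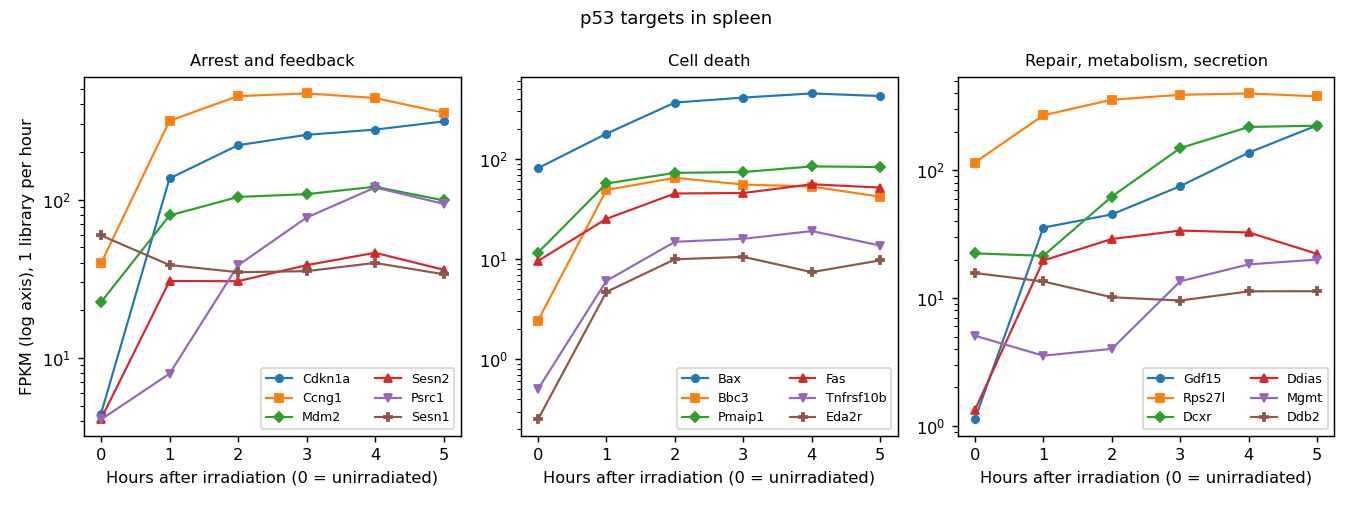
FPKM (log axis) of p53 targets in the single spleen library of each hour, with 0 h unirradiated, in panels for arrest and feedback, cell death, and repair, metabolism and secretion. Cdkn1a, Bbc3 and Sesn2 are already far above 0 h at 1 h, whereas Psrc1, Dcxr and Mgmt climb later and Sesn1 and Ddb2 lie below their 0 h values.

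Among p53 targets of cell death, Bbc3, Pmaip1 and Eda2r rose. Bbc3 encodes PUMA, a BH3-only protein that activates mitochondrial apoptosis, and lies on chromosome 7 (16308398 to 16318334, GRCm38.p6). It stood at 2.42 FPKM at 0 h and at 49.2, 65.1, 55.7, 53.2 and 42.1 FPKM at 1 to 5 h. Its mean was 21.9 times the 0 h value, and its log2 change of 3.97 ± 0.24 had the smallest p of all genes (limma adjusted p = 0.00382). Pmaip1, which encodes the BH3-only protein NOXA, stood at 11.6 FPKM and then at 57.1, 72.9, 74.4, 84.6 and 83.4 FPKM (2.57 ± 0.24, limma adjusted p = 0.0105). Eda2r, a TNF receptor family gene, was at 0.250 FPKM and then between 4.71 and 10.6 FPKM (2.88 ± 0.39, limma adjusted p = 0.0477). At 1 h, Bbc3, Eda2r and Pmaip1 already stood 20.3, 18.9 and 4.92 times as high as at 0 h.

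Bax, Fas, Aen, Apaf1 and Tnfrsf10b stood at least 2-fold above 0 h in all 5 libraries but did not pass the limma threshold. Bax, the pore-forming effector of mitochondrial apoptosis, was at 81.2 FPKM at 0 h and at 180, 368, 413, 454 and 427 FPKM after it (2.1 ± 0.47, limma adjusted p = 0.199). The death receptor gene Fas was at 9.60 FPKM and then at 25.3, 45.4, 45.9, 56.1 and 52.0 FPKM (2.07 ± 0.39, limma adjusted p = 0.145). In both, the 1 h library was intermediate between 0 h and the other hours. The apoptosome gene Apaf1 was at 6.35 FPKM and then between 15.3 and 40.2 FPKM. Of 14 members tested, 3 rose and 0 fell by limma, 8 were 2-fold higher in every library and the median log2 change was 2.06. Casp1, Trp53i11 and Bid had log2 changes of -0.37, -0.06 and 0.11. Perp was under the filter.

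The repair, metabolism and secretion list was mixed. Ddias, which encodes an inhibitor of apoptosis after DNA damage, rose from 1.32 FPKM to 19.7, 29.0, 33.7, 32.6 and 22.1 FPKM (3.58 ± 0.31, limma adjusted p = 0.00842). Gdf15, a secreted member of the TGF-beta family, stood at 1.12 FPKM at 0 h and at 35.6, 45.1, 75.1, 137 and 225 FPKM. Its log2 change of 5.29 ± 0.88 missed the threshold (limma adjusted p = 0.105), while its 1 h library already lay 31.6-fold above 0 h. The mTORC1 inhibitor gene Ddit4, its paralog Ddit4l, the polymerase gene Polk and the ribosomal protein gene Rps27l were also 2-fold higher in every library. Of 22 members, 1 rose, 0 fell by limma and 6 were 2-fold higher in every library, with a median of 0.59. The nucleotide excision repair genes Ddb2 and Xpc, the polymerase gene Polh and the ribonucleotide reductase gene Rrm2b had log2 changes of -0.47, -0.29, -0.47 and -0.37. Gls2 was not analysed here. Trp53 itself stood at 53.2 FPKM at 0 h and at 73.5, 89.2, 67.4, 58.1 and 50.7 FPKM, values that spanned the 0 h level (0.32 ± 0.29, limma adjusted p = 0.73).

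The p53 targets did not share a time course. Of 54 tested, 43 had their highest irradiated value at 4 h or 5 h (29 at 4 h and 14 at 5 h), against 13.1% and 30.9% of all genes at those hours. At 1 h, Bbc3 had reached 75.6% of its highest value, Pmaip1 67.5%, Ccng1 67.2% and Sesn2 66.3%. Cdkn1a had reached 43.6% and Bax 39.6%. Psrc1, a microtubule-associated gene, had reached 6.68%, with 4.09 FPKM at 0 h and 7.96, 38.4, 76.9, 119 and 94.0 FPKM afterwards. Dcxr, a sugar reductase gene, stood at 22.4 FPKM and then at 21.4, 62.2, 149, 218 and 223 FPKM, so that its 1 h library lay below 0 h. The DNA alkyl transferase gene Mgmt was at 5.09 FPKM, at 3.55 and 4.01 FPKM at 1 h and 2 h, and at 13.5, 18.4 and 20.0 FPKM from 3 h on. These late genes did not pass the comparison over 1 to 5 h (limma adjusted p = 0.426, 0.568 and 0.769 for Psrc1, Dcxr and Mgmt). Psrc1 and Dcxr were singled out after their values were seen. Of the other genes named without a statement that they passed the test, some were set by the naming rules given with the processing. The rest were chosen after their values were seen.

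**Figure D2:**
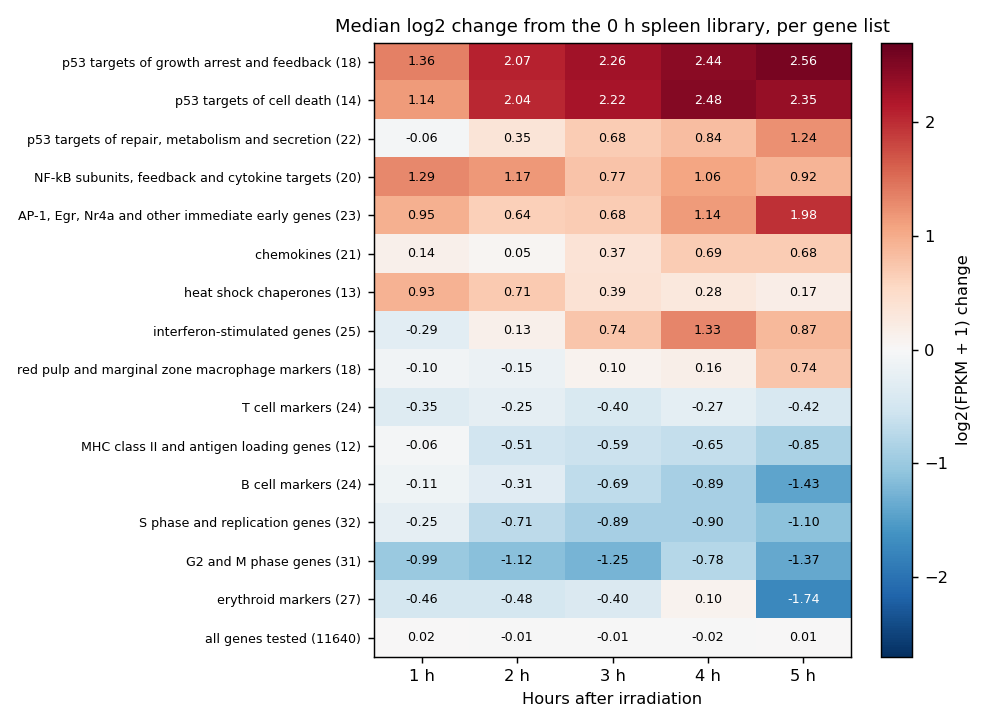
Median log2(FPKM + 1) change from the 0 h spleen library (colour and printed value) at each hour for gene lists, with the number of genes tested in brackets. The p53 lists for arrest and death climb from 1.36 and 1.14 at 1 h to 2.56 and 2.35 at 5 h, while the B cell list goes from -0.11 to -1.43 and all genes stay between -0.02 and 0.02.

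The other 10 rising genes lay outside the p53 lists. Slc19a2, a thiamine transporter gene, stood at 1.98 FPKM and then at 24.4, 46.6, 46.4, 45.2 and 30.1 FPKM (3.68 ± 0.37, limma adjusted p = 0.0149). Fam212b stood at 0.836 FPKM and then between 10.9 and 30.2 FPKM (3.66 ± 0.48, limma adjusted p = 0.0458), and the predicted gene Gm11974 at 22.0 FPKM and then between 99.4 and 149 FPKM (2.42 ± 0.26, limma adjusted p = 0.0209). A further 5 rose by less, the salt-inducible kinase gene Sik1 (2.01), the zinc finger gene Zscan22 (1.93), the RNA-binding protein gene Rbm41 (1.91), the G protein-coupled receptor gene Gpr132 (1.60) and Map3k8, a kinase of inflammatory signalling (1.44). The remaining 2, 5830428M24Rik and Fam92a, were listed at 0.0218 and 0.00485 FPKM at 0 h and between 2.97 and 8.74 FPKM later, and such values near 0 can be failed estimates.

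Of the 2 falling genes, Snn is the one with ordinary values. Snn, which encodes the small membrane protein stannin, lies on chromosome 16 (11066298 to 11074985, GRCm38.p6). It stood at 111 FPKM at 0 h and at 24.7, 25.8, 29.0, 30.5 and 24.6 FPKM from 1 to 5 h. It fell by 2.01 ± 0.20 on the log2 scale (limma adjusted p = 0.0127), and its low level was complete in the 1 h library. The other, A630033H20Rik, was at 7.87 FPKM at 0 h and listed under 0.05 FPKM in all 5 irradiated libraries. Called genes were also followed through the omission of each irradiated library in turn. Of the 14 so followed, Cdkn1a, Bbc3, Ccng1, Sesn2 and Ddias passed limma whichever irradiated library was left out, whereas Phlda3, Plk2, Eda2r and Fam212b passed in 1 of the 5, that without 1 h, with their highest limma adjusted p (0.126, 0.131, 0.152 and 0.152) without 2 h. Mdm2 and Gm11974 did not pass without 2 h, 3 h or 4 h (highest limma adjusted p = 0.1 and 0.0813). Pmaip1, Slc19a2 and Snn did not pass without 2 h (limma adjusted p = 0.0526, 0.0533 and 0.0533).

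Beyond these calls, some genes outside the lists stood far above 0 h in all 5 libraries without passing limma. Tnfsf4, which encodes the T cell costimulator OX40 ligand, was at 0.353 FPKM and then at 4.67, 11.5, 24.8, 34.2 and 30.8 FPKM (3.76 ± 0.90, limma adjusted p = 0.233). The costimulator gene Cd80 was at 5.52 FPKM and then at 20.5, 29.8, 34.0, 45.0 and 40 FPKM. The receptor tyrosine kinase gene Epha2 was at 1.29 FPKM and then between 8.47 and 22.0 FPKM. In all 3 the 1 h library was the lowest irradiated one.

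Genes of NF-kB signalling were higher after irradiation and peaked early. Of 20 tested, 18 lay above 0 h in all 5 libraries, where 21.4% of all genes did, and 6 were 2-fold higher in all 5. The median log2 change was 1.10, and 0 members passed limma in either direction, while 13 did so upward at an unadjusted p below 0.05 and 12 in the fit of 40 libraries. Cd83, an activation marker of B cells and dendritic cells, stood at 85.1 FPKM at 0 h and at 840, 449, 209, 195 and 197 FPKM. Nfkbia, the gene of the inhibitor that NF-kB induces against itself, stood at 126 FPKM and then at 528, 353, 229, 241 and 233 FPKM. The feedback gene Tnfaip3, which encodes A20, was at 14.5 FPKM and then at 135, 74.7, 49.8, 50.7 and 58.7 FPKM. In these 3 genes the 1 h library was the highest.

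The adhesion gene Icam1 was at 45.4 FPKM and then at 270, 202, 149, 144 and 141 FPKM (1.92 ± 0.36, limma adjusted p = 0.145). The subunit gene Rel had 12.5 FPKM at 0 h and 63.0 FPKM at 1 h, and between 25.0 and 35.1 FPKM at 2 to 5 h. In 13 of the 20 genes every library at 3 to 5 h lay below both at 1 h and 2 h, where 18.9% of all genes did. At 1 h, 14 of 20 stood 2-fold above 0 h, against 2.40% of all genes. The cytokine gene Il6 and the enzyme gene Ptgs2 were highest later. Il6 was listed at 0 FPKM at 0 h and 1 h, at 10.5 FPKM at 4 h and at 106 FPKM at 5 h, and Ptgs2, which encodes cyclooxygenase-2, was at 0.0777 FPKM at 0 h and 24.4 FPKM at 5 h. An NF-kB site matched 9 of 19 promoter windows of the list (47.4%), those of Bcl3, Il6, Nfkb2, Nfkbia, Nfkbie, Rel and Tnfaip3, and 5.29% of all windows.

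**Figure D3:**
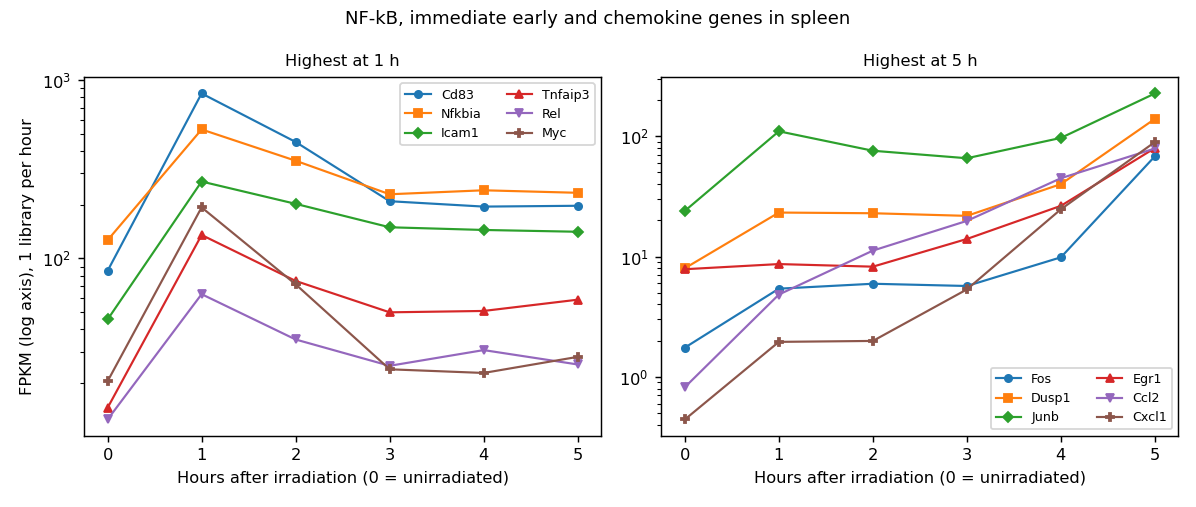
FPKM (log axis) of NF-kB, immediate early and chemokine genes in the single spleen library of each hour. Genes in the left panel are highest at 1 h, such as Cd83 at 840 and Myc at 193, and genes in the right panel are highest at 5 h, such as Junb at 226 and Dusp1 at 139.

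Immediate early genes, which cells switch on within minutes of a stimulus, were mostly highest in the 5 h library, with Myc and Dusp2 among the exceptions. Myc, the growth regulator, stood at 20.5 FPKM at 0 h and at 193, 71.5, 23.9, 22.8 and 28.1 FPKM, back near its 0 h level by 3 h. The phosphatase gene Dusp2 was at 34.8 FPKM and then at 129, 76.7, 39.1, 38.8 and 47.8 FPKM. Fos, an AP-1 subunit, was at 1.75 FPKM and then at 5.40, 5.94, 5.69, 9.85 and 68.1 FPKM. Dusp1, a phosphatase that restrains MAP kinases, was at 7.98 FPKM and then at 23.2, 22.9, 21.8, 39.9 and 139 FPKM, and Egr1 was at 7.84 FPKM and at 79.7 FPKM at 5 h.

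Of 23 immediate early genes tested, 5 were highest at 1 h and 18 at 5 h, where 27.6% and 30.9% of all genes were. The median log2 change was 1.15, with 0.95 at 1 h, 0.68 at 3 h and 1.98 at 5 h. By limma 0 members passed in either direction, with 4 up and 1 down at an unadjusted p below 0.05 and 5 up in the fit of 40 libraries. A CArG box, the site of serum response factor, matched 6 of 23 windows (26.1%), those of Dusp5, Egr2 and Zfp36, against 1.32% of all windows. Fosb, Fosl1 and Nr4a2 were under the filter.

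Ccl2 and Cxcl1, which attract monocytes and neutrophils, were highest at 5 h. Ccl2 stood at 0.820 FPKM at 0 h and at 4.83, 11.2, 19.8, 44.7 and 79.0 FPKM, higher at each hour than at the one before. Cxcl1 stood at 0.442 FPKM and at 1.95, 1.99, 5.33, 24.7 and 89.4 FPKM. Among 21 tested chemokine genes, 14 were highest at 5 h, where 30.9% of all genes were, and the median log2 change was 0.47. By limma 0 of 21 passed. At an unadjusted p below 0.05, 2 passed up and 1 down, where 1181 of all 11640 genes passed in either direction. In the fit of 40 libraries 2 passed up. The homeostatic chemokine genes Cxcl13, Ccl19 and Ccl21a, made by lymphoid stroma, had changes of 0.32, -0.16 and -0.07. The tissue repair genes Hbegf and Lif were at 2.28 and 0.391 FPKM at 0 h and at 44.0 and 25.4 FPKM at 5 h. Of 13 such genes of tissue injury 12 were highest at 5 h, where 30.9% of all genes were, and their median change there was 1.67. By limma 0 of 13 passed, with 1 up at an unadjusted p below 0.05 and 2 up in the fit of 40 libraries. In the same library the macrophage, stromal and erythroid medians were 0.74, 0.84 and -1.74, and their part in these values was not tested.

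Interferon-stimulated genes were mostly highest at 4 h. Of 25 tested, 21 had their highest value at 4 h, where 13.1% of all genes did, and every library at 3 to 5 h lay above both early ones in 17, where 17.5% of all genes did. The median change was -0.29 at 1 h, 1.33 at 4 h and 0.87 at 5 h. Mx1, an antiviral GTPase gene, was at 6.03 FPKM at 0 h and then at 9.87, 42.1, 49.4, 56.3 and 35.8 FPKM. Ifit1, which binds viral RNA, was at 8.83 FPKM and then at 8.54, 31.9, 37.9, 50.4 and 27.9 FPKM. In both genes the 1 h library was the lowest irradiated one, above 0 h for Mx1 and below it for Ifit1. Over 1 to 5 h, 0 of 25 passed limma, and 1 passed upward at an unadjusted p below 0.05, as in the fit of 40 libraries.

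Heat shock chaperones showed the opposite order. Their median change was 0.93 at 1 h and 0.17 at 5 h, and 9 of 13 were lower in every library at 3 to 5 h than in both earlier ones, where 18.9% of all genes were. Hspa1b was at 0.254 FPKM at 0 h and then at 9.80, 3.48, 1.38, 1.24 and 1.85 FPKM, and Hsph1 at 17.3 FPKM and then at 55.5, 46.5, 22.3, 18.6 and 13.5 FPKM. Glucocorticoid-induced genes had a median of 0.90 over 12 genes, with 8 highest at 5 h. Among them, Mt1 and Mt2, metallothioneins that bind zinc, were at 60.6 and 27.0 FPKM at 0 h, at 44.4 and 16.5 FPKM at 1 h and at 472 and 264 FPKM at 5 h. Neither list had a member past limma (0 of 13 and 0 of 12). At an unadjusted p below 0.05, 1 heat shock and 6 glucocorticoid-induced genes passed upward, and in the fit of 40 libraries 0 and 2.

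Genes of the Bcl2 family outside the p53 lists held members of both signs. The prosurvival gene Bcl2l1, which encodes Bcl-xL, was at 13.3 FPKM and then at 62.0, 46.5, 32.9, 40.1 and 35.7 FPKM, and Bcl2a1b at 60.5 FPKM and then between 138 and 262 FPKM. Both were highest at 1 h. The killer gene Bcl2l11, which encodes BIM, was at 8.05 FPKM and then at 15.6, 22.8, 31.2, 40.6 and 34.8 FPKM. Bmf, another BH3-only gene, was at 9.59 FPKM and then between 3.66 and 4.87 FPKM (-1.03 ± 0.23, limma adjusted p = 0.199). Of 12 tested, 0 passed limma, with 5 up and 1 down at an unadjusted p below 0.05 and 4 up and 1 down in the fit of 40 libraries. Of 7 caspase genes, 4 lay below 0 h in all 5 libraries, where 22.3% of all genes did, among them Casp9, at 11.1 FPKM and then between 5.35 and 7.83 FPKM.

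B cell markers stood lower after irradiation, and lowest at 5 h. Cd79b, a signalling subunit of the B cell receptor, stood at 871 FPKM at 0 h and at 532, 386, 293, 224 and 153 FPKM. Its partner Cd79a stood at 484 FPKM and at 364, 211, 163, 145 and 119 FPKM (-1.38 ± 0.52, limma adjusted p = 0.429). The inhibitory receptor gene Cd22 went from 112 FPKM to 63.8, 36.2, 31.3, 24.5 and 18.8 FPKM. In these 3 genes each hour was lower than the one before it.

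Some B cell genes did not share that order. Ms4a1, which encodes CD20, was at 405 FPKM, at 491 FPKM at 1 h and at 134 FPKM at 5 h. The homing receptor gene Cxcr5 was at 98.0 FPKM and then at 304, 240, 118, 79.2 and 44.2 FPKM, and the low-affinity IgE receptor gene Fcer2a at 149 FPKM and then at 156, 366, 306, 203 and 77.7 FPKM. Fcrla was 2-fold lower in all 5 libraries, from 149 FPKM to between 32.8 and 60.9 FPKM.

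Of 24 B cell markers tested, 13 lay below 0 h in every library, where 22.3% of all genes did. At all of 3 to 5 h, 17 were lower than at both 1 h and 2 h, where 18.9% of all genes were, and 0 passed limma. Downward, 8 passed at an unadjusted p below 0.05 and 6 in the fit of 40 libraries. The median change was -0.11 at 1 h, -0.69 at 3 h and -1.43 at 5 h, with 1 marker 2-fold lower at 1 h and 16 at 5 h. Over all genes 1.65% and 3.94% were. The summed level of the list went from 4421 FPKM at 0 h to 1644 FPKM at 5 h. In these bulk libraries, fewer cells of a type and less RNA per cell cannot be told apart. The antigen-loading genes H2-Oa and H2-Ob, which B cells express, were at 175 and 176 FPKM at 0 h and at 50.2 and 36.9 FPKM at 5 h, and the median of 12 class II genes was -0.54. Of these 12, 0 passed limma, 5 passed downward at an unadjusted p below 0.05 and 3 in the fit of 40 libraries.

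**Figure D4:**
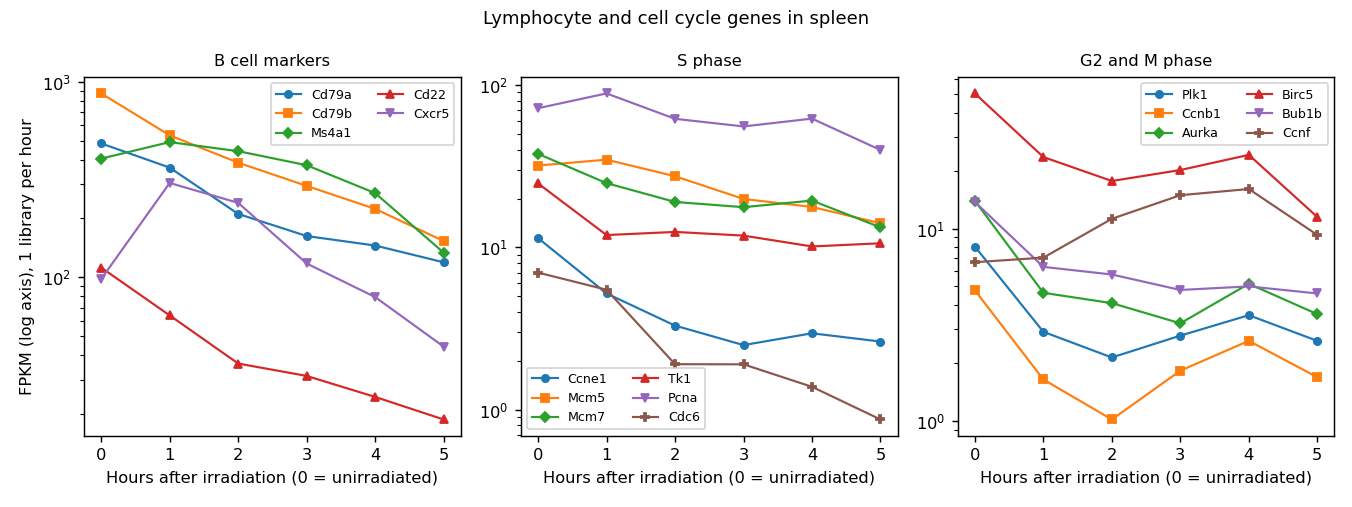
FPKM (log axis) of B cell markers, S phase genes and G2 and M phase genes in the single spleen library of each hour. Cd79b and Cd22 are lower at each later hour, Cxcr5 is highest at 1 h, and the G2 and M phase genes Plk1, Ccnb1, Aurka, Birc5 and Bub1b are below 0 h from 1 h on, unlike Ccnf.

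T and NK cell markers also stood lower in many cases. Of 24 T cell markers 13 lay below 0 h in all 5 libraries, and of 11 NK cell markers 5, where 22.3% of all genes did. The T cell list had a median of -0.29, ranging from -0.25 to -0.42 over the hours. By limma 0 of 24 passed, with 6 down at an unadjusted p below 0.05 and 2 down in the fit of 40 libraries. The adhesion gene Cd2, with the lowest change of the list (-1.56), was at 147 FPKM and then at 87.3, 47.8, 41.9, 37.1 and 44.0 FPKM. Cd3e was at 33.0 FPKM and then between 27.9 and 36.5 FPKM, on both sides of 0 h. NK cell markers had a median of -0.25 over 11 genes. Germinal centre, monocyte, dendritic and plasma cell lists had medians of 0.02, -0.0044, -0.20 and -0.07. Those of neutrophils and of platelets and megakaryocytes were 0.35 and -0.15, with the neutrophil list at 0.61 at 4 h and -0.52 at 5 h.

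Macrophage and stromal markers were highest in the 5 h library. The scavenger receptor gene Marco, of marginal zone macrophages, was at 141 FPKM at 0 h and at 132, 227, 442, 414 and 786 FPKM, and the haem oxygenase gene Hmox1 at 889 FPKM and at 2243 FPKM at 5 h. Of 18 macrophage markers 15 were highest at 5 h, as were 15 of 17 stromal markers, where 30.9% of all genes were. Their medians at 5 h were 0.74 and 0.84. Erythroid markers were lowest there, with a median of -1.74 and 26 of 27 genes 2-fold below 0 h. No macrophage, stromal or erythroid marker passed limma over 1 to 5 h (0 of 18, 0 of 17 and 0 of 27), with 2 up, 0 and 5 down at an unadjusted p below 0.05 and 0, 0 and 4 down in the fit of 40 libraries. The summed level of the erythroid markers was 38216 FPKM at 0 h, 68847 FPKM at 4 h and 11130 FPKM at 5 h. The part of this shift in the FPKM of other genes at 4 h and 5 h was not tested. The carbonic anhydrase gene Car1 was at 123 FPKM at 0 h and then at 57.3, 3.86, 1.22, 2.77 and 0 FPKM, and the erythroid transcription factor gene Gata1 at 13.2 FPKM and then between 3.36 and 5.91 FPKM.

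Genes of cell division stood lower after irradiation, and those of mitosis were already at a median of -0.99 at 1 h. Plk1, the mitotic kinase, stood at 8.06 FPKM at 0 h and at 2.90, 2.13, 2.77, 3.54 and 2.6 FPKM (-1.27 ± 0.25, limma adjusted p = 0.174). Ccnb1, which encodes cyclin B1, was at 4.77 FPKM and then at 1.64, 1.02, 1.82, 2.61 and 1.69 FPKM. The kinase gene Aurka was at 14.0 FPKM and then at 4.63, 4.09, 3.21, 5.16 and 3.59 FPKM (-1.55 ± 0.26, limma adjusted p = 0.107). In all 3 the 0 h library was the highest, and among the irradiated ones that of 4 h was the highest.

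Of 31 G2 and M phase genes, 29 lay below 0 h in every library, where 22.3% of all genes did, and 6 were 2-fold lower in all 5 (Aurka, Birc5, Bub1, Bub1b, Cdc25c and Kif20a), against 0.258% of all genes. The median change was -1.09 over all hours, and -0.99, -1.12, -1.25, -0.78 and -1.37 at 1 to 5 h. Among the irradiated libraries, 21 of 31 were highest at 4 h, where 13.1% of all genes were, and 20 were lowest at 5 h, where 25.5% were. The erythroid markers had the same order, with 21 of 27 highest at 4 h and 25 lowest at 5 h, and its part in the levels of these genes was not tested. By limma 0 passed in either direction, with 26 down at an unadjusted p below 0.05 and 5 down in the fit of 40 libraries. Ccnf, which encodes cyclin F, was higher in every library, from 6.68 FPKM to between 7.06 and 16.1 FPKM. The list's promoters shared 2 motifs of the cell cycle, TTTGAA in 20 of 27 windows (74.1%, all windows 11.9%) and CCAAT in 24 of 27 (88.9%, all windows 37.2%).

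S phase genes had a median of -0.25 at 1 h and -1.10 at 5 h. Ccne1, which encodes cyclin E1 and drives entry into S phase, was at 11.4 FPKM and then at 5.20, 3.30, 2.50, 2.96 and 2.63 FPKM (-1.56 ± 0.33, limma adjusted p = 0.184). It was the member 2-fold lower in every library. Mcm5, a subunit of the replicative helicase, was at 31.9 FPKM and then at 34.7, 27.4, 19.9, 17.7 and 14.1 FPKM, and Mcm7 at 37.7 FPKM and then at 24.9, 19.1, 17.7, 19.4 and 13.3 FPKM. The origin licensing gene Cdc6 was at 6.99 FPKM and at 0.870 FPKM at 5 h. Of 32 genes, 23 lay below 0 h in all 5 libraries (22.3% of all genes), and 22 were lower at all of 3 to 5 h than at both 1 h and 2 h (18.9% of all genes). By limma 0 passed, with 15 down at an unadjusted p below 0.05 and 4 down in the fit of 40 libraries. The E2F motifs TTTGGCGC and TTTCGCGC each matched 5 of 31 windows (16.1%), against 0.955% and 0.648% of all windows.

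Circadian clock genes had a median of 0.23 over 14 genes. The clock output gene Dbp was at 23.3 FPKM and then between 8.70 and 14.0 FPKM. Per1 was at 5.51 FPKM and then between 8.39 and 13.7 FPKM, and the clock repressor gene Bhlhe40 at 17.0 FPKM and then between 29.8 and 91.8 FPKM. In each of these 3 genes all irradiated libraries lay on one side of 0 h. Of the 14 clock genes, 5 lay above and 2 below 0 h in all 5 libraries, where 21.4% and 22.3% of all genes did. The part of time of day cannot be told apart from that of radiation. DNA break signalling and repair genes outside the p53 lists had a median of -0.10 over 22 genes, Atf4 stress genes 0.25 over 8, cholesterol synthesis genes 0.09 over 14 and reference genes -0.11 over 10. Their members did not pass limma (0 in each list). At an unadjusted p below 0.05, 1 clock gene passed upward and 1 downward, where 1181 of all 11640 genes passed in either direction. At that level 1 repair gene passed upward and 2 downward, and 1 Atf4 gene downward. So did 1 reference gene upward, and 0 cholesterol genes passed. In the fit of 40 libraries 1 repair gene passed upward and 0 of the others.

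The later irradiated libraries were also tested against the earlier ones. Between 1 to 2 h and 3 to 5 h, 3 genes passed limma (0.0258%), and all 3, Nudt6, Ift43 and Atp5g1, were listed near 0 in the libraries of one of the windows. At an unadjusted p below 0.05, 1795 genes passed. Cdkn1a differed by 0.69 ± 0.22 (limma adjusted p = 0.241). A straight line over hours 1 to 5, fitted within the irradiated libraries, called 313 genes. Without the 4 h library 0 genes passed the test of 3 to 5 h against 1 to 2 h (1025 at an unadjusted p below 0.05).

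The spleen was set beside the thymus, another lymphoid organ, with 1 library at 0 h and 5 at 1 to 5 h of its own. The p53 targets had a median change of 1.63 in spleen and 1.45 in thymus, and 27 of 54 were larger in spleen. Cdkn1a in thymus was at 9.88 FPKM at 0 h and then at 48.3, 137, 228, 268 and 233 FPKM, and the difference of the changes was 1.56 ± 1.03 (limma adjusted p = 0.93). For Bbc3 it was 0.42 ± 0.49 and for Bax -0.12 ± 0.70 (limma adjusted p = 0.96 and 0.996). Among 11220 genes, 1 passed the test of the difference (0.00891%), 5830428M24Rik, which was listed near 0 in the 0 h spleen. At an unadjusted p below 0.05, 651 genes passed. With standard errors of this size, a missed threshold does not show that the change was equal.

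The interferon-stimulated genes had a median of 0.51 in spleen and 0.07 in thymus, and the chemokines 0.47 and 1.40. No member of either list passed the test of the difference. Myc had a change of 1.15 in spleen and -0.99 in thymus (difference 2.14 ± 1.31, limma adjusted p = 0.921), and Cd83 of 1.87 and 0.77 (difference 1.10 ± 0.91, limma adjusted p = 0.937).

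Against the small intestine, which is not lymphoid, 2 p53 targets differed. Among 10276 genes, 4 passed the test of the difference (0.0389%). Cdkn1a stood at 199 FPKM in unirradiated small intestine and at 386, 426, 517, 485 and 356 FPKM after irradiation. The mean over 1 to 5 h was 434 FPKM there and 240 FPKM in spleen, where the 0 h value was 4.45 FPKM. By these values Cdkn1a lay closer between the tissues as a ratio after irradiation, while the gap in FPKM was about the same. Its change was larger in spleen by 4.31 ± 0.48 (limma adjusted p = 0.00742). Bbc3 was at 1.32 FPKM in small intestine and then at 5.04, 6.81, 4.28, 4.58 and 5.38 FPKM, and its change was larger in spleen by 2.56 ± 0.34 (limma adjusted p = 0.0185). With the hour as a replicate block, the Bbc3 difference did not pass (limma adjusted p = 0.205) and that of Cdkn1a did (limma adjusted p = 0.041).

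The other 2 had lower changes in spleen than in small intestine, Crlf2 (-2.78 ± 0.34, limma adjusted p = 0.00825) and Cpsf1 (-3.0 ± 0.35, limma adjusted p = 0.00742). In the 0 h small intestine they stood at 0.000479 and 0.0126 FPKM. Cpsf1 met the rule for genes listed near 0, and Crlf2, which reached 3.96 FPKM at most in small intestine, did not. Of 54 p53 targets, 41 had the larger change in spleen, with medians of 1.63 in spleen and 0.72 in small intestine. Pmaip1 started higher in small intestine, at 56.5 against 11.6 FPKM, and its difference was 1.17 ± 0.68 (limma adjusted p = 0.774). Phlda3 differed by 0.47 ± 0.59 (limma adjusted p = 0.909). Without the 4 h libraries 0 genes passed by limma (533 at an unadjusted p below 0.05), and without those of 3 h Bbc3 did not.

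**Figure D5:**
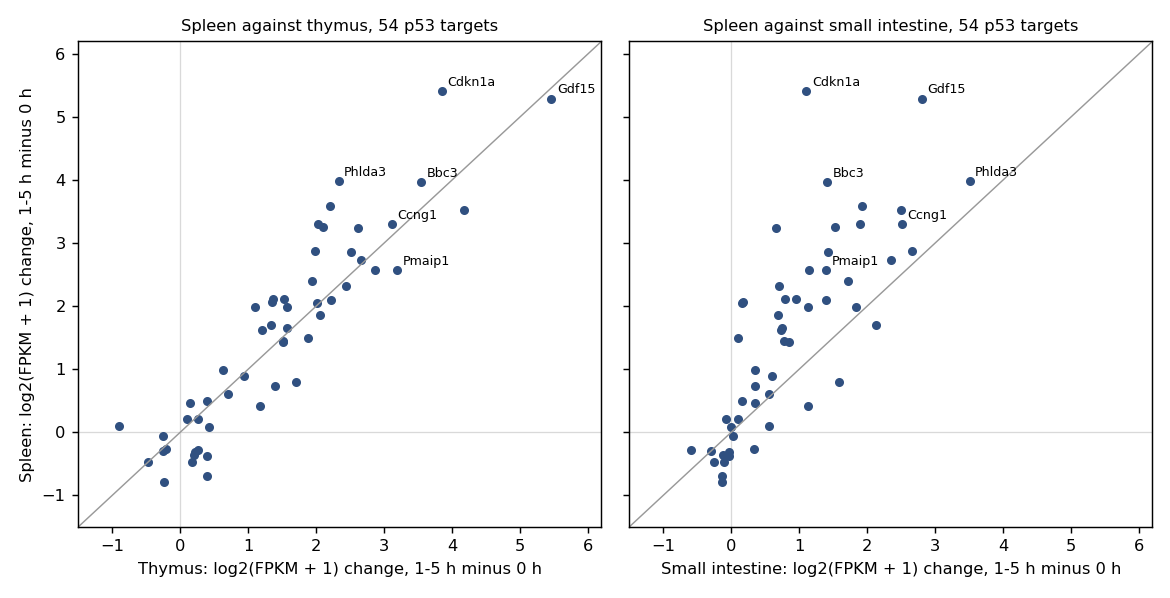
Log2(FPKM + 1) change over 1 to 5 h of 54 p53 targets in spleen (vertical axis) against thymus (left, horizontal axis) and small intestine (right), with the grey line marking equal change and 1 point per gene. Of the 54 points, 27 lie above the line for thymus and 41 for small intestine, where Cdkn1a and Bbc3 passed the test of the difference, Bbc3 only without the replicate block by hour.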

How the data were processed

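RNA of whole tissue was sequenced from polyA-selected libraries without strand marking, so reads of overlapping or antisense genes cannot be told apart. The deposited matrix holds FPKM per gene and library, and the submitters' processing notes name TopHat2 2.1.0, Cufflinks 2.1.1 and the mm10 build. No label states the depth. The steps between low FPKM values put the irradiated libraries at 0.785 to 1.24 times the 0 h depth. Each hour is 1 library, and nothing in the labels says whether libraries are separate animals, so p-values measure the spread between libraries.

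Differences were tested on log2(FPKM + 1), which understates the change of low genes, with limma 3.58.1 (R 4.3.3; lmFit, eBayes with trend, two-sided). Genes needed a mean of at least 1 FPKM, and a Benjamini-Hochberg adjusted p below 0.05 over all genes tested counted as passing. Differences between tissues are interaction terms over 12 libraries. A gene is called listed near 0 when a library is under 0.05 FPKM and another at 5 FPKM or more. The members and the 37 gene lists were chosen with earlier results of these data known. Genes were named as the 12 highest and 12 lowest passing changes, as up to 5 members of each list with the smallest p, and as a short set of p53, B cell and cell cycle genes. From the later window the 8 highest and lowest, and from each tissue difference the 5 highest and lowest passing genes, were added. Others were chosen after their values were seen. The fits were tested on simulated data. Promoters came from RefSeq (GRCm38.p6), where 11129 of 11640 genes matched and 8957 had a window. Alternatives were other pseudocounts, filters, scalings, fits and the omission of each irradiated library. Cultured cell libraries were not used in the comparisons. Large intestine libraries were used only in the fit of 40 libraries. Hours past 5 were used only in that fit and in the fit of all spleen libraries.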

Additional observations from a re-analysis of the deposited data

Results flagged for a closer look

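Among 175 named genes, 13 had an irradiated library far from the other 4 in Dixon's test at the 95% level, which chance alone would give in about 1 of 20 groups. The 1 h library was apart in 8 of them. It was the lowest for Phlda3 at 44.7 FPKM (others 92.4 to 124), Aen at 33.1 FPKM (60.5 to 70.6), Rps27l at 269 FPKM (356 to 398), Bax at 180 FPKM (368 to 454), Fas at 25.3 FPKM (45.4 to 56.1) and the antiviral gene Mx1 at 9.87 FPKM (35.8 to 56.3). It was the highest for the fat genes Adipoq at 6.02 FPKM (0 to 0.407) and Retn at 6.23 FPKM (0.349 to 0.553).

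The 5 h library was the highest for the glucocorticoid-induced gene Klf9 at 10.1 FPKM (8.10 to 8.37), the sphingosine receptor gene S1pr2 at 4.73 FPKM (2.15 to 2.67) and the clock gene Bhlhe40 at 91.8 FPKM (29.8 to 39.4). The 2 h library was the lowest for the platelet gene Treml1 at 1.26 FPKM (6.41 to 10.5) and the highest for the pancreatic gene Ctrb1 at 6.26 FPKM (0 to 0.266).

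The change over 1 to 5 h differed from that of thymus for 1 gene and from that of small intestine for 4 genes by the limma test of the difference. Against small intestine the change in spleen was larger by 4.31 for Cdkn1a and by 2.56 for Bbc3 on the log2 scale, and differed by -2.78 for Crlf2.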

How the results depend on the processing

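For the spleen over 1 to 5 h against 0 h, the 22 genes became 36 with a pseudocount of 0.1, 56 with separate means for 1 to 2 h and 3 to 5 h, 269 in a fit of 10 spleen libraries and 661 in the fit of 40 libraries of 4 tissues, and between 7 and 117 with an irradiated library left out. Between 3 to 5 h and 1 to 2 h, 3 genes became 1 with a filter at 5 FPKM, 0 without genes listed near 0 (1799 at an unadjusted p below 0.05), 189 in the fit of 10 libraries, 763 in that of 40 and 313 as a slope over hours, and between 0 and 13 with a library left out. Against thymus, 1 gene became 5 with a pseudocount of 0.1, 0 without genes listed near 0 (654 at an unadjusted p below 0.05) and between 0 and 8 with an hour left out. Against small intestine, 4 genes became 19 with a pseudocount of 0.1, 8 without a filter, 2 with a filter at 5 FPKM and between 0 and 24 with an hour left out.

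With the hour as a replicate block, 0 genes differed from thymus (899 at an unadjusted p below 0.05) and 2 from small intestine, where Cdkn1a passed (limma adjusted p = 0.041) and Bbc3 did not (0.205). Libraries of the same hour share a time point, and no label ties them to the same animal. Their deviations from the group mean correlated between -0.0299 and 0.498 with thymus, where 3 of 5 hours correlated best with their own number, and between -0.0233 and 0.142 with small intestine. For the named genes over 1 to 5 h against 0 h in spleen, 2469 values kept their side of the threshold. A further 121 passed newly and 33 no longer passed. Among values that passed in either fit, 0 reversed direction, and a change of direction in genes that passed in neither was not counted. The cause of these shifts was not tested.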
